A study of Mus musculus with 6 samples.

Results

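ERK signalling induces genes that restrain or relay it, and 10 of them were followed in BCR-ABL-transformed mouse pro-B leukaemia cells: the phosphatase genes Dusp2, Dusp4, Dusp5 and Dusp6, the Sprouty genes Spry1 and Spry2, the related genes Spred1 and Spred2, and the Ets factor genes Etv4 and Etv5. They were taken by symbol from an RPKM table (reads scaled to transcript length and library size), where these 10 of 22098 symbols each had 1 transcript row. All 10 members reached 1 RPKM in all 6 libraries. The libraries were poly(A) RNA from cultures of C57BL/6 whole bone marrow in 3 genotypes: wt, called wild type here, Ikaros_ZnF1-/- (ZnF1 mutant) and Ikaros_ZnF4-/- (ZnF4 mutant). The mutants lack zinc finger 1 or 4, each within the DNA-binding domain of Ikaros, a transcription factor of lymphocyte development encoded by Ikzf1. Every culture, wild type included, carried the retrovirus BCR-ABL-p185-IRES-YFP, added to the marrow at day 0. Each genotype was sampled once at day 21 and once at day 28, so that n = 2 per genotype. Separate cultures are not stated for the pair of days of a genotype, and the p-values below therefore measure only the spread between these samples.

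BCR-ABL is a constitutively active tyrosine kinase that feeds, through the adaptors Grb2 and Gab2, into Ras and the kinases Raf, MEK and ERK. ERK in turn induces its own inhibitors. Dual-specificity phosphatases remove the activating phosphates from ERK, Sprouty proteins interfere with signalling between receptors and Raf, and Spred proteins recruit the Ras-inactivating protein neurofibromin to the membrane. Etv4 and Etv5 are Ets transcription factors whose transcript levels follow ERK output in many cell types, and Dusp6, Spry2 and Etv5 are known as feedback genes of oncogenic kinases in B-cell leukaemia. No protein or phosphorylation was measured here.

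Promoter windows are shown for 3 members: Spred2 and Etv5, which were both higher in the ZnF4 mutant in 1 of the comparisons below and hold an Ikaros motif, and Dusp5, which hardly varied with genotype and was the only member with a CArG box. RefSeq windows of GRCm38.p6, from 250 bases before to 50 bases after a start, were at hand for 8 of the 10 members (9 windows), and this build differs from the mm9 build of the values. The motifs searched on both strands were TGGGAA, a core of the Ikaros recognition sequence that also contains the Ets core GGAA, and the CArG box bound by serum response factor, which acts with ERK-phosphorylated Ets factors. Capitals mark the matches.
Spred2, chr11:19924192-19924491, plus strand: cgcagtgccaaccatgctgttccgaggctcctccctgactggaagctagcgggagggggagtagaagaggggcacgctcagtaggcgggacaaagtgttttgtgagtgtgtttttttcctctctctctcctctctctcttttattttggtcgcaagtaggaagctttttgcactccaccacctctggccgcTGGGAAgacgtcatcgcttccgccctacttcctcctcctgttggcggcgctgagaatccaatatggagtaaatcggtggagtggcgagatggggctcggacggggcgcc
Etv5, chr16:22438319-22438618, minus strand: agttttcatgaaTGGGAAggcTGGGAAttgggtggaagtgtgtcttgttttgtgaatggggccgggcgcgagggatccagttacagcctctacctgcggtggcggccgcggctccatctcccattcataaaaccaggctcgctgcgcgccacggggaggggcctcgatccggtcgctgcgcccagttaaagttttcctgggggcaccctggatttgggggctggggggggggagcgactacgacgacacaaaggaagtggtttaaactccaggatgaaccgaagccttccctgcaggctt
Dusp5, chr19:53528895-53529194, plus strand: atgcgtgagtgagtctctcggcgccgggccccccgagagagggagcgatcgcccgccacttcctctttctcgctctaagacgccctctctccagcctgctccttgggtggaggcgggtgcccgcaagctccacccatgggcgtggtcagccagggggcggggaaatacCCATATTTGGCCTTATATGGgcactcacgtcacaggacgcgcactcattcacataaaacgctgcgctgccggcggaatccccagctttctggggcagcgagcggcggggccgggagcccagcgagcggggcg
The Spred2 window held 1 TGGGAA, beginning 59 bases before the start, and the Etv5 window held 2, at 238 and 229 bases before it. The other Etv5 window had none, and Dusp2, which was not called in any comparison, had 1 on the opposite strand. TGGGAA was present in 25.6% of all 32851 windows. Dusp5 held 2 CArG boxes side by side, at 82 and 72 bases before the start, and 1.63% of all windows held at least 1. The windows of Dusp6, Spry1, Spry2 and Spred1 held neither motif, although Spred1 was called higher in both mutants. Dusp4 and Etv4 had no window. Spred2 and Etv5 were picked for having both a call and a motif, and a link between motif and level was not tested. A match is a description of the letters and not of binding.

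The cells carried the transcripts of their label. The 8 B-lineage markers, Cd79a, Cd79b, Vpreb1, Igll1, Ebf1, Pax5 and Blnk among them, summed to between 2456.9 and 2907.3 RPKM over the 6 libraries. Markers of other cells moved with genotype. The 14 myeloid markers summed to 377.4 and 582.2 RPKM in wild type, to 2115.7 and 2177.7 RPKM in the ZnF1 mutant, and to 227.7 and 291.7 RPKM in the ZnF4 mutant, with none at 0 in a genotype. By limma (below), 14 of 14 were higher in the ZnF1 mutant than in wild type, as were 22.9% of all tested genes. In the ZnF4 mutant 8 of 14 were lower than in wild type, as were 7.32% of all tested genes. The 12 stromal and endothelial markers summed to at most 63.9 RPKM in wild type, 198.4 RPKM in the ZnF1 mutant and 33.1 RPKM in the ZnF4 mutant, with Lum at 0 throughout. Of the 10 stromal and endothelial markers tested, 9 were higher in the ZnF1 mutant and 5 lower in the ZnF4 mutant, beside the same shares. Pdgfra, Kdr, Col3a1 and Dcn, all among the 9, passed the filter of at least 1 RPKM in at least 2 libraries only through their ZnF1 values. Their ZnF1 calls are thus partly set by the filter. Markers of T and NK cells, of granulocytes and of erythroid cells summed to at most 9.1 RPKM, a value of the T and NK list in the ZnF1 mutant. Cd4 made up most of that sum, with 8.5 and 7.2 RPKM in the ZnF1 libraries against 0.4 and 0.2 RPKM in wild type. The part of such cells in the ZnF1 results below was not tested. In the ZnF4 mutant the myeloid and the stromal and endothelial sums were below those of wild type. The targeted gene Ikzf1, whose whole-transcript value cannot check the loss of 1 finger, had 89.2 and 78.7 RPKM in wild type, 108 and 91.4 RPKM in the ZnF1 mutant and 186 and 165.9 RPKM in the ZnF4 mutant. The read depth is unknown.

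Among the 10 genes, the transcripts of 2 ERK phosphatases were the most abundant. In wild type the order by RPKM, which is per length and so comparable between genes, was led by Dusp6 (67.8 to 73.9 RPKM) and Dusp5 (45 to 65.6 RPKM). Spred1 (21.1 to 22.1), Spred2 (12.1 to 12.6), Dusp2 (10.3 to 11.8), Spry2 (9.7 to 10.2), Etv5 (8.2 to 10), Spry1 (6.9 to 8.3), Etv4 (2.3 to 5.6) and Dusp4 (1.5 to 2.1 RPKM) followed. The ranges of neighbours overlapped between Spry2 and Etv5 and between Etv5 and Spry1, and in no other adjacent pair. The mean of Dusp6 lay above 94.4% of the 11379 tested genes and that of Dusp4 above 25.4%. Summed over the 10 genes, the level on the 2 days was 191.5 and 215.6 RPKM for wild type, 242.8 and 245.5 RPKM in the ZnF1 mutant, and 238.1 and 274.3 RPKM in the ZnF4 mutant. Both mutants thus lay above wild type in this sum, most of which comes from Dusp5 and Dusp6. In bulk RNA, more cells with a transcript and more transcript per cell cannot be told apart.

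**Figure D1:**
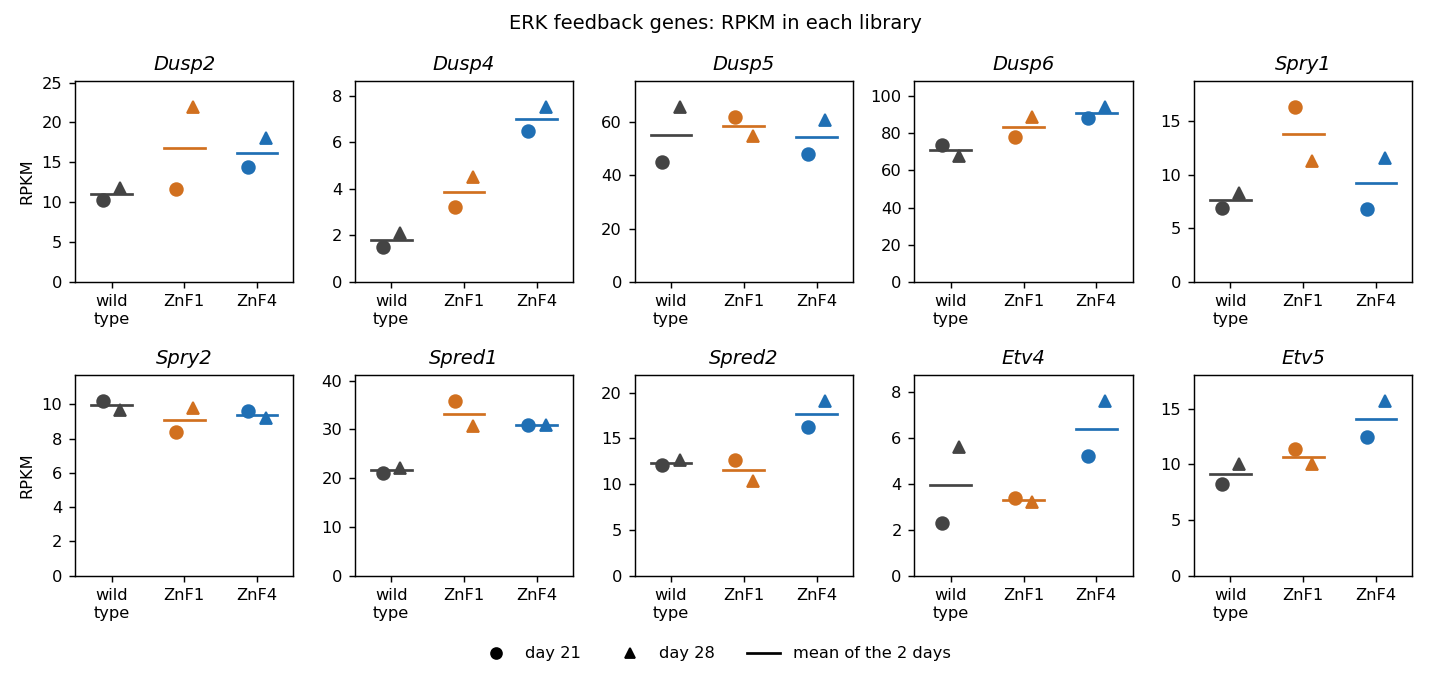
RPKM of the 10 ERK feedback genes (vertical axes from 0, a separate scale per gene) in wild type, ZnF1 and ZnF4 libraries at day 21 (circles) and day 28 (triangles), with the mean of both days as a bar. Dusp4 rises in steps from 1.5 and 2.1 in wild type to 6.5 and 7.5 in the ZnF4 mutant, whereas Spry2 stays between 8.4 and 10.2 in every library.

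Differences between genotypes are given on the log2(RPKM + 1) scale, which understates the change of low genes, with their standard error from limma. The model held genotype and day as additive terms and was fitted to all 11379 genes with at least 1 RPKM in at least 2 libraries. A gene was called higher or lower at a Benjamini-Hochberg adjusted p below 0.05 over all those genes. In the ZnF1 mutant against wild type, 2 of the 10 genes were higher and 0 lower, where 38.1% of all tested genes were called, 22.9% higher and 15.2% lower. In the ZnF4 mutant against wild type, 3 of 10 were higher and 0 lower, against 18.2% of all genes called, 10.9% higher and 7.32% lower. In the ZnF4 against the ZnF1 mutant, 2 of 10 were higher and 0 lower, against 45.5%, 22.3% and 23.2%. At an unadjusted p below 0.05 by limma, 4, 7 and 4 of the 10 genes passed, each with a positive difference, beside 49.3%, 32.5% and 53.9% of all tested genes in either direction. The median difference of the 10 genes was 0.22, 0.49 and 0.09 in the 3 comparisons, and that of all tested genes -0.02, 0.02 and 0.03. The comparisons share libraries, so they are not independent of each other, and the counts are read against those shares only.

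Dusp4, which encodes a nuclear phosphatase for ERK and other MAP kinases, had the largest differences from wild type of the 10 genes in both mutants. It stood at 1.5 and 2.1 RPKM in the wild type libraries of day 21 and day 28, at 3.2 and 4.5 in the ZnF1 libraries and at 6.5 and 7.5 in the ZnF4 libraries. The 3 genotypes did not overlap, and the order was the same on both days. The difference from wild type was 0.79 ± 0.10 in the ZnF1 mutant (adjusted p = 0.00372) and 1.52 ± 0.10 in the ZnF4 mutant (adjusted p = 0.00129). The ZnF4 mutant lay above the ZnF1 mutant by 0.73 ± 0.10 (adjusted p = 0.00344). The call in the ZnF1 mutant was lost without the day 21 wild type sample (adjusted p = 0.0529) or that of day 28 (adjusted p = 0.0545), with differences of 0.78 and 0.80, and the difference was 0.42 with quantile scaling (adjusted p = 0.0212). The calls in the ZnF4 mutant, against either other genotype, held with any 1 library left out. On the 2 days taken singly, Dusp4 in the ZnF4 mutant was 1.58 and 1.46 above wild type. It was the only member at least 2-fold higher in RPKM + 1 on both days, as 2.55% of tested genes were. By the same measure 0 members were in the ZnF1 mutant against wild type and between the mutants, against 8.23% and 1.63% of genes. In RPKM without the added 1, Dusp4 in the ZnF1 mutant was also more than 2-fold above wild type on both days. Of the variation of Dusp4 over the 6 libraries, genotype held 94.3%, against a median of 82.6% for all tested genes.

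Dusp6, the cytoplasmic phosphatase specific for ERK, moved less. It measured 73.9 (day 21) and 67.8 RPKM (day 28) with wild type Ikaros, 78 and 89 with the ZnF1 deletion, and 88 and 94 with the ZnF4 deletion. Both wild type libraries were the lowest, and the 2 mutants overlapped. Its difference was 0.23 ± 0.09 in the ZnF1 mutant (adjusted p = 0.11) and 0.36 ± 0.09 in the ZnF4 mutant (adjusted p = 0.0597), with 95% confidence intervals of -0.01 to 0.47 and 0.12 to 0.60. Neither was called, although both were with quantile scaling (0.35, adjusted p = 0.027, and 0.36, adjusted p = 0.0443).

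Dusp2, a nuclear phosphatase of haematopoietic cells, gave 10.3 and 11.8 RPKM for wild type, 11.7 and 21.9 for the ZnF1 mutant, and 14.4 and 18 for the ZnF4 mutant. The ZnF1 library of day 28 was the highest, while that of day 21 lay within the wild type range. The fitted differences of 0.50 ± 0.17 and 0.51 ± 0.17 were not called (adjusted p = 0.0706 and 0.109). Without the day 21 ZnF1 sample the first was 0.81 and called (adjusted p = 0.0288). Dusp5, a nuclear phosphatase that also anchors ERK, stood at 45 and 65.6 RPKM in the wild type libraries of day 21 and day 28, at 61.9 and 54.9 in the ZnF1 libraries and at 47.9 and 60.7 in the ZnF4 libraries. The genotypes overlapped, and the pair of wild type libraries spanned all others. Its differences were 0.10 ± 0.17 and -0.01 ± 0.17 (adjusted p = 0.674 and 0.979), with 95% confidence intervals of -0.33 to 0.53 and -0.44 to 0.42. Genotype held 6.49% of its variation, day 35.7%.

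Of the Spred genes, Spred1 was higher than wild type in both mutants and Spred2 was higher in the ZnF4 than in the ZnF1 mutant. Spred1 had 21.1 and 22.1 RPKM in wild type, 35.8 and 30.6 RPKM in the ZnF1 mutant, and 30.9 RPKM in both ZnF4 libraries. Every mutant library was above both wild type libraries. It was higher by 0.59 ± 0.09 in the ZnF1 mutant (adjusted p = 0.00702) and by 0.50 ± 0.09 in the ZnF4 mutant (adjusted p = 0.0218). The difference between the mutants was -0.10 ± 0.09, with a 95% confidence interval of -0.33 to 0.14 (adjusted p = 0.429). The ZnF1 call was lost without either wild type sample or the day 21 ZnF1 sample (adjusted p = 0.0932, 0.0567 and 0.0681). The ZnF4 call was lost without any single library of wild type or the ZnF4 mutant (adjusted p reaching 0.216) and without the filter on low values (adjusted p = 0.0819).

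Spred2 measured 12.1 (day 21) and 12.6 RPKM (day 28) with wild type Ikaros, 12.7 and 10.3 with the ZnF1 deletion, and 16.3 and 19.1 with the ZnF4 deletion. Both ZnF4 libraries were above the other 4, and wild type lay inside the ZnF1 range. It was higher in the ZnF4 than in the ZnF1 mutant by 0.58 ± 0.13 (adjusted p = 0.0182). Against wild type the difference was 0.48 ± 0.13 in the ZnF4 mutant (adjusted p = 0.0643) and -0.10 ± 0.13 in the ZnF1 mutant (adjusted p = 0.574), neither called. The call was lost without either wild type sample, which adds to the shared spread (adjusted p = 0.0625 and 0.0624), and without the filter (adjusted p = 0.068). Without the day 28 ZnF1 sample the difference was 0.38 (adjusted p = 0.106), and without the day 28 ZnF4 sample it was 0.42 (adjusted p = 0.116).

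The Sprouty genes gave no call. Spry1 gave 6.9 and 8.3 RPKM for wild type, 16.3 and 11.3 for the ZnF1 mutant, and 6.8 and 11.6 for the ZnF4 mutant. Both ZnF1 libraries lay above wild type, and the ZnF4 libraries fell on either side of it. The fitted difference of 0.77 ± 0.27 in the ZnF1 mutant (adjusted p = 0.0783) rested mostly on day 21, with 1.13 on that day and 0.40 on day 28. Without the day 28 ZnF1 sample it was 1.24 (adjusted p = 0.0352), and without that of day 21 it was 0.29 (adjusted p = 0.377). Between the mutants it was -0.56 ± 0.27 (adjusted p = 0.152), and -1.04 without the day 28 ZnF1 sample (adjusted p = 0.0382). Whether the myeloid markers, also higher in the ZnF1 mutant, had a part in the Spry1 levels was not tested. Spry2 stood at 10.2 and 9.7 RPKM in the wild type libraries of day 21 and day 28, at 8.4 and 9.8 in the ZnF1 libraries and at 9.6 and 9.2 in the ZnF4 libraries. It was the steadiest of the 10 genes, with a highest value 1.21 times the lowest, where Dusp4 had 5 times. Its differences were -0.12 ± 0.10 and -0.07 ± 0.10 (adjusted p = 0.388 and 0.673), and the 95% confidence intervals reached from -0.37 to 0.14 and from -0.33 to 0.18.

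Of the Ets factors, Etv5 measured 8.2 (day 21) and 10 RPKM (day 28) with wild type Ikaros, 11.4 and 10 with the ZnF1 deletion, and 12.5 and 15.7 with the ZnF4 deletion. Both ZnF4 libraries were above the other 4. It was higher than wild type in the ZnF4 mutant by 0.58 ± 0.14 (adjusted p = 0.0446), and in the ZnF1 mutant the difference was 0.22 ± 0.14 (adjusted p = 0.263). The ZnF4 call was narrow: it was lost without any single library of wild type or the ZnF4 mutant (adjusted p reaching 0.319), without the filter (adjusted p = 0.145), with quantile scaling (adjusted p = 0.0635), without the variance trend (adjusted p = 0.0503) and without day as a block (adjusted p = 0.0538). Against the ZnF1 mutant the difference of 0.36 ± 0.14 was not called (adjusted p = 0.0833). Without the day 21 ZnF1 sample it was 0.59 and called (adjusted p = 0.0413).

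Etv4 gave 2.3 and 5.6 RPKM for wild type, 3.4 and 3.2 for the ZnF1 mutant, and 5.2 and 7.6 for the ZnF4 mutant. The wild type libraries were far apart and enclosed both ZnF1 libraries, and the ZnF4 libraries were above the ZnF1 libraries. No difference was called: it was -0.12 ± 0.25 in the ZnF1 mutant (adjusted p = 0.735), 0.65 ± 0.25 in the ZnF4 mutant (adjusted p = 0.147) and 0.76 ± 0.25 between the mutants (adjusted p = 0.0557). The last was called with quantile scaling (adjusted p = 0.0224), with median scaling (0.79, adjusted p = 0.0451), without either wild type sample (adjusted p = 0.0445 each) and without the day 21 ZnF1 sample (1.17, adjusted p = 0.039).

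**Figure D2:**
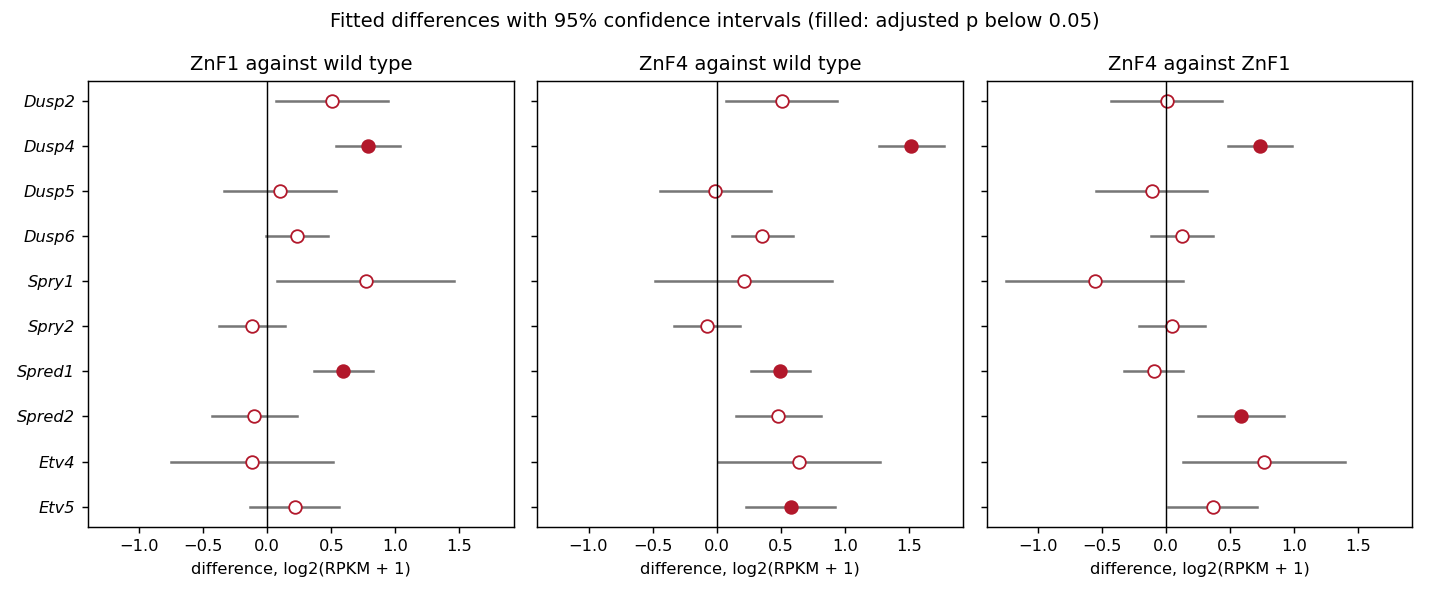
Fitted difference in log2(RPKM + 1) for each gene (rows) in the 3 genotype comparisons (panels), with bars for the 95% confidence interval and filled points for an adjusted p below 0.05 by limma. Dusp4 is filled in all 3 panels, Spred1 in both comparisons with wild type, Etv5 in the ZnF4 mutant against wild type and Spred2 between the mutants.

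Counted by ranges rather than by the fit, 4 of 10 genes lay wholly above wild type in the ZnF1 mutant (Dusp4, Dusp6, Spry1 and Spred1), where 34.7% of all tested genes did, and 0 lay wholly below, where 33.4% did. In the ZnF4 mutant 6 of 10 did (Dusp2, Dusp4, Dusp6, Spred1, Spred2 and Etv5), where 30.9% of all genes did, and Spry2 lay wholly below, as did 24.6% of all genes. Between the mutants, 4 of 10 (Dusp4, Spred2, Etv4 and Etv5) lay wholly higher in the ZnF4 mutant, against 37.0% of all genes, and 0 wholly lower, against 32.6%. The shares of members wholly above sit near the background in the first and the last comparison.

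**Figure D3:**
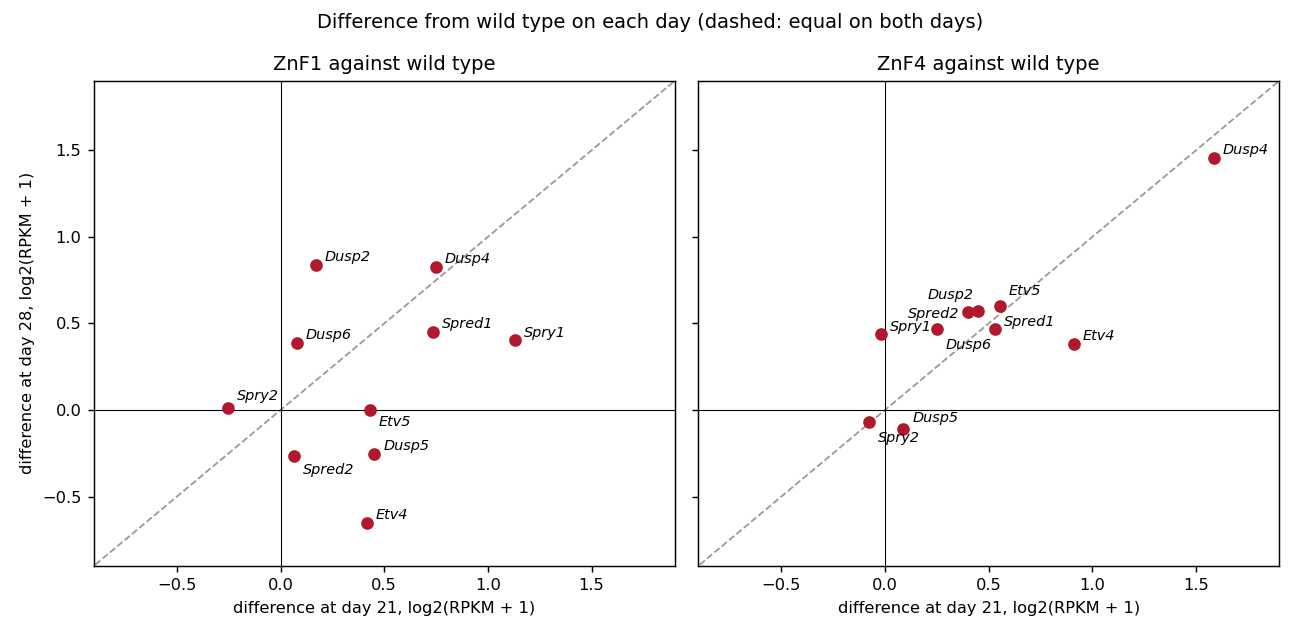
Difference from wild type in log2(RPKM + 1) at day 21 (horizontal) and at day 28 (vertical) for the ZnF1 (left) and ZnF4 (right) mutant, 1 point per gene and 1 library per genotype and day. In the ZnF4 panel Dusp4 stands at 1.58 and 1.46 near the dashed line of equal differences, and in the ZnF1 panel Etv4 is positive at day 21 (0.42) and negative at day 28 (-0.65).

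Between the days, 0 of the 10 genes were called, as were 0.0% of all tested genes. At an unadjusted p below 0.05 in the limma fit, 2 of 10 genes passed, Dusp2 and Dusp4, as did 14.3% of all genes. These were also the 2 members that were higher at day 28 in all 3 genotypes, as 22.7% of all genes were, and 0 were lower in all 3, as 12.6% were. Dusp2 differed by 0.44 ± 0.14 between the days (adjusted p = 0.279) and Dusp4 by 0.29 ± 0.08 (adjusted p = 0.252). A change of a genotype difference with time has no test here, since no genotype has a second library on the same day.

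The other genes of the pathway fall into 4 lists. Of the other MAP kinase phosphatases, 5 of 6 were tested, since Dusp8 did not exceed 0.1 RPKM. In the ZnF1 mutant 2 were higher and 0 lower (median difference 0.49), where 38.1% of all tested genes were called. In the ZnF4 mutant 1 was higher and 0 lower (median 0.37), where 18.2% of all were called. Between the mutants 0 were higher and 1 lower (median 0.09), where 45.5% of all were called. Dusp1, a phosphatase induced by stress and growth factors, stood at 6.3 and 8.9 RPKM in the wild type libraries of day 21 and day 28, at 23.6 and 21.4 in the ZnF1 libraries and at 6 and 6.9 in the ZnF4 libraries. It was higher by 1.47 ± 0.15 in the ZnF1 mutant (adjusted p = 0.00198) and lower in the ZnF4 than in the ZnF1 mutant by 1.66 ± 0.15 on this scale (adjusted p = 0.000986). Against wild type the ZnF4 difference of Dusp1 was -0.19 (adjusted p = 0.431), and those libraries overlapped. Dusp10, which acts mainly on JNK and p38, was higher in the ZnF1 mutant by 0.49 ± 0.09 (adjusted p = 0.0136), a call lost with quantile scaling (adjusted p = 0.177) and without any single library of wild type or the ZnF1 mutant (adjusted p reaching 0.125). Dusp9, another ERK phosphatase, rose from 0.2 and 0.1 RPKM with wild type Ikaros to 1.5 and 4.3 RPKM in the ZnF4 samples (1.66 ± 0.32, or 3.44 with a pseudocount of 0.1, adjusted p = 0.0256). That call was lost without any 1 library other than the day 21 ZnF4 sample (adjusted p reaching 0.219) and without the filter (adjusted p = 0.125). Dusp7, a relative of Dusp6 that was not called, had 43.7 to 66.2 RPKM over the libraries.

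Of 12 further genes known to respond to ERK, 8 were tested. Of these, 5 were higher and 1 lower in the ZnF1 mutant (median 1.16). The 1 lower gene, Lif (-0.86 ± 0.23, adjusted p = 0.0383 by limma), was also lower in the ZnF4 mutant, as given below. In the ZnF4 mutant 2 were higher and 2 lower (median 0.23), and between the mutants 0 higher and 5 lower (median -0.78). Of all tested genes 38.1%, 18.2% and 45.5% were called in either direction in the 3 comparisons. Ccnd1, which encodes cyclin D1 and is also controlled by other pathways, measured 5.7 (day 21) and 4.9 RPKM (day 28) with wild type Ikaros, 46.1 and 41.1 with the ZnF1 deletion, and 31.5 and 33.2 with the ZnF4 deletion. Emp1, a membrane protein gene, had 8.7 and 5.8 RPKM, 36.7 and 36.3 RPKM, and 47.1 and 54.5 RPKM in the same order. These 2 genes were higher in both mutants, Ccnd1 by 2.82 ± 0.09 and 2.41 ± 0.09 and Emp1 by 2.21 ± 0.17 and 2.67 ± 0.17. Ier3 (1.62 ± 0.11), a stress and growth factor response gene, and Fosl1 (1.18 ± 0.12), an AP-1 subunit, were higher in the ZnF1 mutant. Both were lower in the ZnF4 than in the ZnF1 mutant (-1.29 ± 0.11 and -1.04 ± 0.12), as were the third Spred gene, Spred3 (-1.30 ± 0.13, or -2.52 with a pseudocount of 0.1), and the ephrin receptor gene Epha2 (-1.75 ± 0.18). Each of these calls held with any 1 library left out. Spred3 had 0.6 and 0.3 RPKM in wild type, 2.1 and 2.3 RPKM in the ZnF1 mutant, and 0.3 RPKM in both ZnF4 libraries. It passed the filter only through its ZnF1 values, so its calls are partly set by the filter. By limma it was higher in the ZnF1 mutant than in wild type (adjusted p = 0.00278). Its difference between the ZnF4 mutant and wild type was not called (adjusted p = 0.499). Against wild type, the ZnF4 mutant was lower for Epha2 (-1.19 ± 0.18) and for the cytokine gene Lif (-1.38 ± 0.23). Both calls were lost without the filter and without either wild type sample (adjusted p reaching 0.124 for Epha2 and 0.137 for Lif), and that of Lif also without either ZnF4 sample (adjusted p reaching 0.151) and without day as a block (adjusted p = 0.211).

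In the kinase cascade the median differences lay near 0. Of 20 tested genes from adaptors to ERK, 5 were higher and 2 lower in the ZnF1 mutant (median -0.04). In the ZnF4 mutant 2 were higher and 0 lower (median 0.01), and between the mutants 3 higher and 5 lower (median 0.08). The called shares of this list did not exceed those of all tested genes, which were 38.1%, 18.2% and 45.5%. The ERK1 gene Mapk3 had 23.7 and 23 RPKM in wild type, 28.5 and 28.3 in the ZnF1 mutant, and 27.3 in both ZnF4 libraries. By limma its difference from wild type was 0.27 in the ZnF1 mutant (adjusted p = 0.0269) and 0.22 in the ZnF4 mutant (adjusted p = 0.0811). Rras, a Ras-related GTPase, gave 3.4 and 2.2 RPKM for wild type, 11.9 and 10.3 for the ZnF1 mutant, and 6.3 and 5.9 for the ZnF4 mutant. The docking protein gene Gab1 had 2.4 RPKM in both wild type libraries, 10.7 and 7.1 RPKM in the ZnF1 mutant, and 5 and 5.8 RPKM in the ZnF4 mutant. Both were higher in both mutants, Rras by 1.69 ± 0.12 and 0.92 ± 0.12 and Gab1 by 1.52 ± 0.18 and 0.91 ± 0.18. Gab2, the docking protein downstream of BCR-ABL, was higher in the ZnF1 mutant (0.60 ± 0.09). The ZnF1 call of Rras held with any 1 library left out. That of Gab1 was lost without the day 21 wild type sample (adjusted p = 0.0556), and that of Gab2 without either wild type sample or the day 21 ZnF1 sample (adjusted p reaching 0.0943). In the ZnF4 mutant, Rras lost its call without the day 28 wild type sample or either ZnF4 sample (adjusted p reaching 0.0818) and Gab1 without any single library of wild type or the ZnF4 mutant (adjusted p reaching 0.241). Without the filter neither was called there. Against the ZnF1 mutant, the ZnF4 mutant was lower for Rras (-0.77 ± 0.12), the scaffold gene Ksr1 (-0.77 ± 0.13, or -0.40 with quantile scaling) and Gab2 (-0.46 ± 0.09). The calls of Rras and Gab2 were lost without either ZnF1 sample or the day 21 ZnF4 sample (adjusted p reaching 0.121). That of Ksr1 was lost without the day 28 ZnF1 sample or the day 21 ZnF4 sample (adjusted p = 0.0597 and 0.0623).

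Ras-inactivating proteins and the Dok adaptors made up the last list, with 9 genes tested. In the ZnF1 mutant 3 were higher and 0 lower (median 0.26), where 38.1% of all tested genes were called. In the ZnF4 mutant 1 was higher and 2 lower (median -0.03), where 18.2% of all were called. Between the mutants 1 was higher and 4 lower (median -0.21), where 45.5% of all were called. Nf1, which encodes the Spred partner neurofibromin, was higher in the ZnF1 mutant by 0.44 ± 0.10 (adjusted p = 0.0274), a call lost with quantile scaling (adjusted p = 0.374), without the filter (adjusted p = 0.0569) and without any single library of wild type or the ZnF1 mutant (adjusted p reaching 0.197). Rasal2, a Ras-inactivating protein gene, was higher in the ZnF4 mutant than in wild type (1.60 ± 0.12, or 2.51 with a pseudocount of 0.1) and than in the ZnF1 mutant (1.27 ± 0.12). The first of these calls was lost without the day 28 ZnF4 sample (adjusted p = 0.0549). Dok3 stood at 25.2 and 30.8 RPKM in the wild type libraries of day 21 and day 28, at 18.8 and 36.6 in the ZnF1 libraries and at 5.5 and 4.5 in the ZnF4 libraries. The ZnF4 libraries stood apart from the other 4, and it was lower than in the ZnF1 mutant by 2.19 ± 0.26 on this scale, a call that held with any 1 library left out. Against wild type Dok3 was lower by 2.27 ± 0.26, a call lost without the filter, without either wild type sample and without the day 28 ZnF4 sample (adjusted p reaching 0.0957). Dok2, which had 2.4 to 4.5 RPKM in wild type and 15.6 to 21.3 RPKM in the ZnF1 mutant, was higher there by 2.15 ± 0.30. This call was lost without the day 28 wild type sample or the day 21 ZnF1 sample (adjusted p = 0.0654 and 0.0715). The difference of Dok2 between the mutants of -2.19 ± 0.30 was called, but not without the day 21 ZnF1 sample (adjusted p = 0.0538). Smaller calls went to Dok1, higher in the ZnF1 mutant than in wild type (0.44 ± 0.08) and lower in the ZnF4 than in the ZnF1 mutant (-0.32 ± 0.08), and to Rasal3, lower in the ZnF4 mutant than in wild type (-0.32 ± 0.06). The Dok1 calls were lost without day as a block (adjusted p = 0.0804 and 0.151) and without any single library of the genotypes compared (adjusted p reaching 0.134 and 0.188), the second also without either wild type sample. The Rasal3 call was lost without any 1 of the 6 (adjusted p reaching 0.252).

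**Figure D4:**
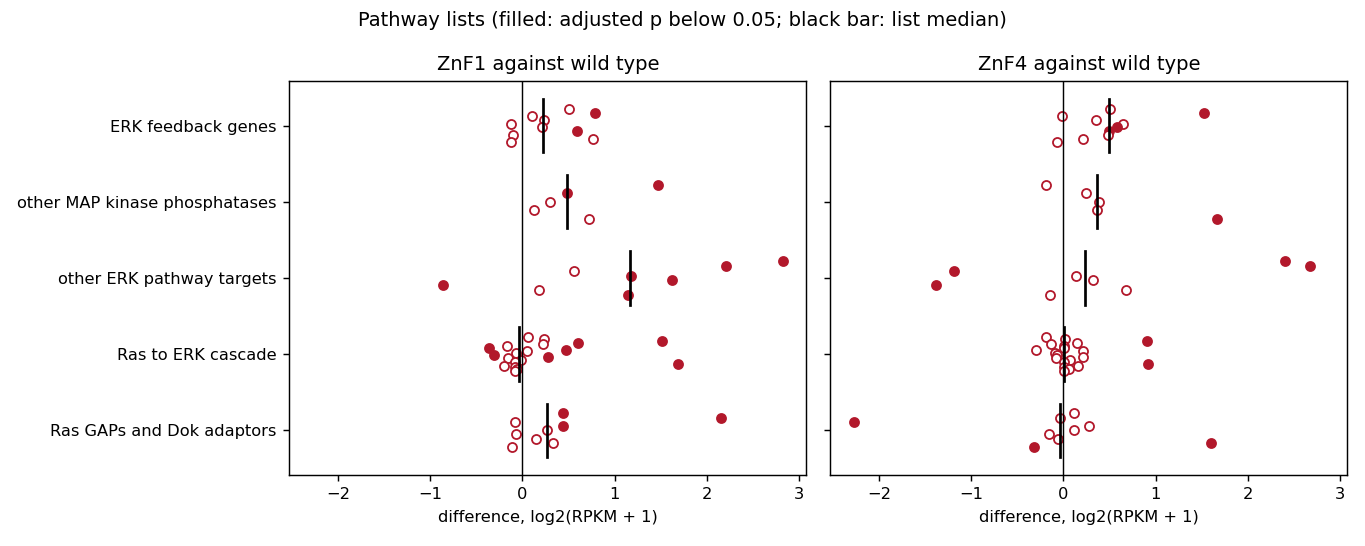
Fitted difference from wild type in log2(RPKM + 1) for the tested genes of 5 lists (rows) in the ZnF1 (left) and ZnF4 (right) mutant, 1 point per gene, filled for an adjusted p below 0.05 by limma, with the list median as a black bar. The median of the ERK feedback genes is 0.22 on the left and 0.49 on the right, and that of the Ras to ERK cascade lies at -0.04 and 0.01.

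The genes whose pattern over the 6 libraries was nearest to a member were sought among the 11379 tested genes for the 4 members with the widest range. The measure was the root mean square difference of log2(RPKM + 1) after centring each gene on its mean. For Dusp4 these were the homeobox gene Hoxb5 (0.14), the phosphatase subunit gene Ppp2r5b (0.16) and the transcription factor gene Bhlhe40 (0.16). Bhlhe40 measured 4.6 (day 21) and 4.7 RPKM (day 28) with wild type Ikaros, 5.8 and 9.4 with the ZnF1 deletion, and 14.3 and 17.7 with the ZnF4 deletion. Its libraries were ordered by genotype as those of Dusp4 were, while Hoxb5, at 0 in wild type on both days, did not exceed 1.9 RPKM. For Dusp2 they were Ddit3 (0.08), a factor of the integrated stress response, the prefoldin subunit gene Pfdn5 (0.09) and Snord37 (0.10), a small nucleolar RNA. In each of them, as in Dusp2, the day 28 ZnF1 sample was the highest. For Etv4 the nearest were Lhfpl1 (0.06), Igj (0.18), which encodes the immunoglobulin joining chain, and Cacna1b (0.20). For Spry1 the nearest included Cyb5 (0.15), which encodes a cytochrome, and Trem1 (0.15), a myeloid receptor gene.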

How the data were processed

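Poly(A) RNA of 6 libraries (3 genotypes at 2 days) was analysed. The authors deposited 1 table of RPKM values, rounded to 1 decimal, for RefSeq transcripts with their lengths. The submitters' processing notes name mm9, TopHat and bedtools, without versions. Annotation, strand setting and read totals are not given in the sources used here, so depth is unknown and no counting interval is given. Of 26531 rows with a symbol, the row with the highest mean stood for each of 22098 symbols, and 1 row without a symbol was left out. The values were transformed with a pseudocount of 1. Genes with at least 1 RPKM in at least 2 libraries were fitted with limma 3.58.1 (R 4.3.3) with genotype and day as terms, moderation with a mean-variance trend (prior of 3.22 beside 2 residual degrees of freedom) and Benjamini-Hochberg adjustment. A standard error follows each ±. Day, which the labels give, served as replicate number and block. Day changes correlated across genes between genotypes (Pearson 0.433, 0.249 and 0.226, over genes, which are not replicates). All 10 members are described. Of each other list the called genes with the smallest p were named, at most 4 per comparison, Mapk3 and Dusp7 being chosen after their values were seen, and up to 3 nearest genes for each of 4 members. Some genes that this rule selects are not reported here. The members and lists were chosen with earlier results of these data known. Alternatives covered scaling, pseudocount (0.1), filter (none, or a mean of at least 4 RPKM), trend, rows, block and each library left out. The steps were tested on simulated data. Promoters came from the RefSeq table of GRCm38.p6.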

Additional observations from a re-analysis of the deposited data

Results flagged for a closer look

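In 2 cases the difference between a pair of genotypes had opposite signs on the 2 days and moved by at least 1 on the log2(RPKM + 1) scale. The change was not tested, as each genotype and day has 1 library. For Etv4, the ZnF1 mutant was 0.42 above wild type at day 21 and 0.65 below it (-0.65) at day 28, a move of -1.07. The wild type library went from 2.3 to 5.6 RPKM, while the ZnF1 libraries had 3.4 and 3.2 RPKM. For Spry1, the ZnF4 mutant differed from the ZnF1 mutant by -1.15 at day 21 and by 0.03 at day 28, a move of 1.18. The ZnF1 library went from 16.3 to 11.3 RPKM and the ZnF4 library from 6.8 to 11.6 RPKM.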

How the results depend on the processing

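The count of called members moved by more than 1.5 times in 3 comparisons. In the ZnF1 mutant against wild type it was 2, and 0 to 3 with 1 library left out, with 0 without either wild type library. In the ZnF4 mutant against wild type it was 3, with 1 without the filter on low values (Dusp4) and 1 to 3 with 1 library left out. Between the mutants it was 2, with 1 without the filter and 1 to 4 with 1 library left out, and without the ZnF1 library of day 28 the 2 called were Dusp4, higher, and Spry1, lower in the ZnF4 mutant (-1.04, adjusted p = 0.0382). Without the replicate block on day the counts were 2, 2 and 2. Over all genes the ZnF1 count of 4336 was 1398 to 4475 with 1 library left out, the ZnF4 count of 2076 was 346 to 1230 (1137 without the filter), and the count between the mutants of 5177 was 2526 to 3896. With quantile scaling the median of all genes moved to -0.12 in the ZnF1 mutant against wild type and to 0.11 between the mutants, and the split of calls became 2114 higher of 4997 and 3379 higher of 5792. Over 550 recomputed differences of the members, 516 stayed on the same side of the threshold, 23 lost a call and 11 gained one, and no called difference changed sign. The comparison of the days could not be fitted without day as a term, and its count was 0 in every other alternative. The RPKM values carry no read numbers, so the precision of low members such as Dusp4 and Etv4 could not be set against read counts. Their standard errors come from the spread shared by the libraries of all genotypes, moderated over all tested genes.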
